A study of Mus musculus with 18 samples.

Results

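The genes of the circadian clock were compared in whole brain, kidney and liver of mice of the inbred strains DBA/2J and C57BL/6J. The genes were chosen by name from the platform annotation: Dbp, Per1, Per2, Per3, Nr1d1 and Nr1d2 on one side, and Arntl, Clock, Npas2 and Nfil3 on the other. All 10 were on the arrays, out of 15095 named genes, and no filter on low values was applied to them. On each of the 18 two-colour glass oligonucleotide arrays, 6 per tissue, a pool of total RNA from DBA/2J mice was hybridised together with a pool from C57BL/6J mice. The brain and kidney pools came from 10 mice each and the liver pools from 9, and a single pair of pools served all arrays of a tissue. The p-values therefore reflect how far repeated hybridisations of the same RNA spread, and say nothing of the spread between mice. DBA/2J RNA carried Alexa Fluor 647 and C57BL/6J RNA Alexa Fluor 555 on every array, with no dye swap, so that a dye effect constant for a spot cannot be told apart from a strain difference. The labels name no treatment, sex or age. The time of day at which tissues were taken is not given in the sources used here, so a strain difference in the level of a rhythmic transcript and one in its timing cannot be told apart.

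The mammalian clock is a feedback loop of transcription. The products of Arntl (also called Bmal1) and Clock, or its paralog Npas2, pair up and act through E-box sequences to switch on the Per and Cry genes, Nr1d1, Nr1d2 and Dbp. PER and CRY proteins then block that pair, and the nuclear receptors encoded by Nr1d1 and Nr1d2 (REV-ERB alpha and beta) repress Arntl, Npas2, Clock and Nfil3 through another sequence, the RRE. DBP activates and NFIL3 represses through a shared sequence, the D-box, which the Per genes also carry. In liver and kidney of mice the Dbp, Per and Nr1d transcripts peak at times of day when Arntl, Npas2 and Nfil3 are low, while the Clock transcript cycles more weakly. Whole brain mixes the master pacemaker of the hypothalamus with many other regions.

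Values are log2 ratios of DBA/2J over C57BL/6J after normalisation within each array, given as the mean ± SD over 6 arrays. Before normalisation the ratio rose with spot intensity on every kidney array (Pearson's r of 0.62 to 0.72). Kidney values given without loess keep that trend, which raises bright spots and lowers dim ones. A positive value means more RNA in DBA/2J, a direction that is likely from the order of the dyes in the labels but not stated. Adjusted p-values come from limma fitted to all 20218 features of a tissue with Benjamini-Hochberg adjustment, and a gene is called higher or lower where that value was under 0.05. The correlation of ratios between arrays of a tissue, across features, averaged 0.382, 0.613 and 0.472 for brain, kidney and liver, and brain array 1 (0.237) and liver array 2 (0.348) were furthest below the other arrays of their tissue. The spots of the 902 genes with 2 spots agreed poorly: across these genes, Pearson's r between the spots' ratios was 0.0816 (brain), 0.0963 (kidney) and 0.0304 (liver). A single spot is all that 9 of the 10 clock genes had, so it may not stand for its gene. Markers of each labelled tissue lay at a median intensity percentile of 79.3 (brain markers), 97.9 (kidney markers) and 99.6 (liver markers). Ratios within whole tissue do not separate fewer cells of a type from less RNA per cell. Of 8 brain markers 1 was higher and 1 lower in DBA/2J brain (Camk2a, 0.56, and Mbp, -0.22). Of 8 kidney markers 4 were lower in DBA/2J kidney (array means of -0.58 to -0.23), and of 9 liver markers 1 was higher and 3 were lower in liver (array means of -0.17 to 0.49). In kidney 2 of the liver markers were higher and 1 was lower (Serpina1a, -1.72). Markers of fat and muscle were higher in DBA/2J liver in 4 of 5 genes (array means of 0.15 to 0.87), and in kidney 2 were higher and 2 lower (array means of -0.27 to 0.16). Blood markers were lower in kidney in 2 of 3 genes (-0.68 to -0.27), in liver in 1 (-0.24 to 0.11) and in brain in 1 (-0.32 to -0.15). Of 8 immune markers 2 were lower in kidney, and in liver 1 was higher and 2 were lower. Of 5 pancreas markers 2 were higher in brain, 2 were higher and 1 lower in kidney, and 1 was lower in liver. Over all features 13.5%, 37.4% and 22.8% were called in brain, kidney and liver. The part of these cells in the clock gene ratios was not tested.

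Of the 10 clock genes, 2 were higher and 1 lower in DBA/2J brain, where 13.5% of all features were called in either direction (7.35% higher, 6.12% lower). In kidney 6 were higher and 1 lower, against 37.4% of all features (18.7% higher, 18.6% lower). In liver 3 were higher and 1 lower, against 22.8% (10.7% higher, 12.1% lower). The called genes of the first set were all higher: brain had 2 of 6, kidney 5 of 6 and liver 2 of 6, and none of the 6 was lower in limma, also at an unadjusted p under 0.05. The opposite set was mixed, with Npas2 lower in brain, Arntl lower and Clock higher in kidney, and Nfil3 lower and Clock higher in liver. The same sign on all 6 arrays was seen for 3 of the 10 genes in brain, 6 in kidney and 4 in liver, and for 18.1%, 32.9% and 24.7% of all features. Kidney calls need the most caution, since in simulated data the features given no strain difference were called too often in kidney.

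**Figure D1:**
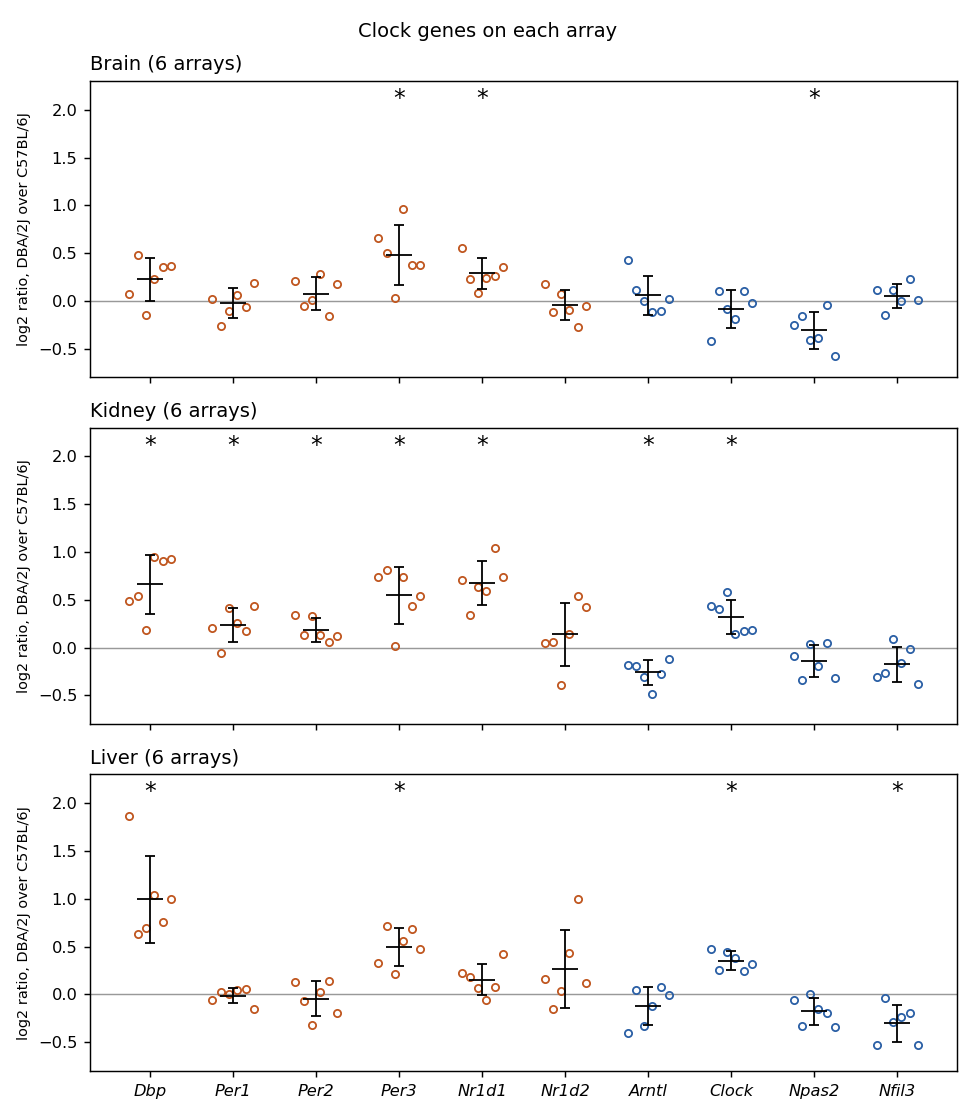
Log2 ratio of DBA/2J over C57BL/6J (vertical axis) for each clock gene (horizontal axis) in brain, kidney and liver. Circles are the 6 arrays, orange for the Dbp, Per and Nr1d genes and blue for the opposite set, bars are the mean ± SD, and asterisks mark an adjusted p under 0.05. Dbp in liver spans 0.63 to 1.87, with array 1 far above the others, and Clock lies above 0 on all arrays of kidney and liver.

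Dbp, which encodes the D-box activator, had the highest ratio of the clock genes in liver. On the 6 liver arrays it ranged from 0.63 through a median of 0.87 to 1.87. All arrays were well above 0, and array 1 was the high one while the others lay between 0.63 and 1.04. The liver mean was 1.00 ± 0.46, or 1.99-fold higher in DBA/2J (adjusted p = 0.000461). It ranked 24 among 15095 named genes, and 0.168% of features lay further out on the same side. Were the direction of the ratio turned, that rank would count from the lowest ratio, and 99.8% of features would lie above it. Without liver array 1 it was 0.82.

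Kidney Dbp ranged from 0.18 through 0.72 to 0.94, again above 0 throughout, with array 3 the lowest. Its mean was 0.66 ± 0.31 (adjusted p = 0.000174), with 0.984% of features further out on the same side. It was larger without loess (1.26), a setting that raises bright kidney spots such as this one, and with intensity unrestored (1.06). Brain Dbp ranged from -0.14 through 0.29 to 0.48 and crossed 0 on array 3. The brain mean of 0.23 ± 0.23 did not pass (adjusted p = 0.102), but did without brain array 3 (0.30, adjusted p = 0.0444) and without loess (0.40, adjusted p = 0.00884). Dbp spots were bright in all 3 tissues, at intensity percentiles of 89.4, 80.7 and 89.3.

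Nfil3, the D-box repressor, was lower in DBA/2J liver, where Dbp was higher. Its liver values ran from -0.53 through -0.26 to -0.03, below 0 on every array. The mean was -0.30 ± 0.19, or 1.23-fold lower in DBA/2J (adjusted p = 0.0172). That call ended without liver array 1 (-0.26, adjusted p = 0.0574) or array 6 (-0.26, adjusted p = 0.0597), and without loess (-0.24, adjusted p = 0.0600).

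Nfil3 was the one clock gene with 2 spots. The liver means of these spots were alike, -0.31 ± 0.26 and -0.30 ± 0.19. In kidney Nfil3 averaged -0.17 ± 0.18 and did not pass (adjusted p = 0.0859). There the dimmer spot gave -0.24 ± 0.14, which passed on its own (adjusted p = 0.0135), and the brighter gave -0.10 ± 0.26. The average passed as well without kidney array 3 (-0.22, adjusted p = 0.0333) and with intensities restored array by array (-0.29, adjusted p = 0.00670). Brain Nfil3 was near 0 (0.05 ± 0.13, adjusted p = 0.666).

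The promoter entries of RefSeq (assembly GRCm38.p6) covered 9 of the 10 genes, and the 250 bases before each start were searched on both strands for 4 short sequences. The E-box was searched as CACGTG, the E-prime box as CACGTT, the D-box as TTATGTAA, TTATGCAA or TTACGTAA, and the RRE core as TAGGTCA or TGGGTCA. Matches stood in 4 of the 9 genes, and none overlapped another. They are shown because they are the binding sequences by which the clock genes act on each other. A match is a description of the letters and no evidence of binding. Capitals mark the matches, which are an E-box and a D-box for Per1, 2 D-boxes for Per3, an E-prime box on the other strand for Nr1d1 and an RRE core on the other strand for Nfil3.
Per1 (first of 2 starts), chr11:69098699-69098948, plus strand: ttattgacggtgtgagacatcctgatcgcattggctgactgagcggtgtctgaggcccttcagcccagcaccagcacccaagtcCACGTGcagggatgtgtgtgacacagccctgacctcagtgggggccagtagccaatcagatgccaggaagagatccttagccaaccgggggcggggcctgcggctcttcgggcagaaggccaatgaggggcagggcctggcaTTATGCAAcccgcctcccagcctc
Per3, chr4:151044666-151044915, minus strand: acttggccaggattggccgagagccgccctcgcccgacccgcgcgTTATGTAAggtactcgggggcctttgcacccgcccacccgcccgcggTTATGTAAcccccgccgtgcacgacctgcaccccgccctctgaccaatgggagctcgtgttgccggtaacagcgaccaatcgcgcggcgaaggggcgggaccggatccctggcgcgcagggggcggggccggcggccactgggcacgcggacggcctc
Nr1d1, chr11:98775378-98775627, minus strand: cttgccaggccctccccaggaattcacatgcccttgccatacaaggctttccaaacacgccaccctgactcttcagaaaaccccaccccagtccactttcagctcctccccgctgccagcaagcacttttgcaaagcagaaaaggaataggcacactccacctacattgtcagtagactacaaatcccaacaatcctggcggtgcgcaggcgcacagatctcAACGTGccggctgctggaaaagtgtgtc
Nfil3, chr13:52981040-52981289, minus strand: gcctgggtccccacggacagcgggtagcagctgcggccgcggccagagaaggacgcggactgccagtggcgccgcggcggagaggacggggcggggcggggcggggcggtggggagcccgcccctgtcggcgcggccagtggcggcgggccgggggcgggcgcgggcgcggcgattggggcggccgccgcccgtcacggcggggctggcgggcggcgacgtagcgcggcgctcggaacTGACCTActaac
Among all 32851 promoter entries, 1.61% held a D-box in the same window, 6.02% an E-box, 3.85% an E-prime box and 5.38% an RRE core. The D-boxes of Per3 began 205 and 158 bases before its start, and that of Per1 began 24 bases before.

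Per3, a period gene and the one with a pair of D-boxes in this window, was called higher in all 3 tissues at much the same size. In brain it ran from 0.03 through 0.44 to 0.96, in kidney from 0.02 through 0.64 to 0.81, and in liver from 0.22 through 0.52 to 0.72. Every one of the 18 arrays was above 0, with array 3 the lowest of each tissue. The means were 0.49 ± 0.31 in brain (adjusted p = 0.0117), 0.55 ± 0.30 in kidney (adjusted p = 0.000612) and 0.50 ± 0.20 in liver (adjusted p = 0.00127), or 1.40-fold, 1.46-fold and 1.41-fold.

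The Per3 spot was dim, at intensity percentiles of 7.03, 6.61 and 1.36 in the order brain, kidney, liver, where background makes up more of a signal. Its kidney mean depended on the loess step: it was 0.12 without loess (adjusted p = 0.332) and 0.11 where intensity was not restored (adjusted p = 0.476). The difference of Per3 between tissues was at most 0.06 in size, with a standard error (SE) of 0.14. Without loess the kidney ratio was lower than that of liver by -0.51 (adjusted p = 0.00884).

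Per1 and Per2, the period genes that respond most directly to light and hormones, passed in kidney and not in brain or liver, although no difference of theirs between tissues passed in the main fit. Kidney Per1 ran from -0.06 through 0.23 to 0.43, with array 2 below 0, and averaged 0.24 ± 0.18 (adjusted p = 0.0226). Kidney Per2 ran from 0.05 through 0.13 to 0.34, above 0 on every array, and averaged 0.19 ± 0.12 (adjusted p = 0.0407). Both kidney calls depended on the arrays and the normalisation. Per1 no longer passed without kidney array 3, 4 or 6 (0.20, 0.23 and 0.197), without loess (0.19, adjusted p = 0.156) or with 1 loess curve per array (0.14, adjusted p = 0.380), and was at 0.37 with intensity unrestored. Per2 no longer passed without kidney array 1, 2, 3, 4 or 6 (0.15 to 0.198), or with intensities restored array by array (0.14, adjusted p = 0.0981). It was larger without loess (0.80, adjusted p = 4.74e-06), with intensity unrestored (0.36, adjusted p = 0.0419) and with 1 loess curve (0.30, adjusted p = 0.0214). The kidney Per2 spot was bright, at intensity percentile 84.4, and the setting without loess raises such spots. Without loess Per2 also differed between brain and kidney (-0.60, adjusted p = 0.00128) and between kidney and liver (0.72, adjusted p = 0.000132), the latter with intensity unrestored as well (0.43, adjusted p = 0.0327).

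In liver, where Dbp and, on a dim spot, Per3 were called higher, Per1 was at -0.01 ± 0.08 (adjusted p = 0.899) and Per2 at -0.05 ± 0.18 (adjusted p = 0.694). The liver values of Per1 spread from -0.15 to 0.06, one of the smallest spreads on the array (SD percentile 3.51). In brain the values were -0.03 ± 0.16 for Per1 (adjusted p = 0.848) and 0.08 ± 0.17 for Per2 (adjusted p = 0.540). For these genes the arrays of brain and of liver lay on both sides of 0.

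Nr1d1, the gene of the repressor REV-ERB alpha, had the highest ratio of the clock genes in kidney. Its kidney values ran from 0.34 through 0.67 to 1.04, all above 0. The mean was 0.68 ± 0.23, or 1.60-fold higher (adjusted p = 4.11e-05), with 0.925% of features further out on the same side. Brain Nr1d1 ran from 0.09 through 0.25 to 0.56, also above 0 on every array, with a mean of 0.29 ± 0.16 (adjusted p = 0.0282). The brain call ended without brain array 2, 4, 5 or 6 (0.30, 0.297, 0.29 and 0.27, with adjusted p of 0.0520, 0.0675, 0.0680 and 0.0798). Liver Nr1d1 ran from -0.05 through 0.13 to 0.42 and did not pass (0.15 ± 0.16, adjusted p = 0.145). It did pass in liver without loess (0.28, adjusted p = 0.0493) and with 1 loess curve per array (0.36, adjusted p = 0.0117).

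Nr1d2, the gene of the related REV-ERB beta, passed in none of the tissues. Its liver values ran from -0.15 through 0.14 to 0.99, with array 5 the high one, and averaged 0.27 ± 0.40 (adjusted p = 0.134). Kidney Nr1d2 ran from -0.39 through 0.10 to 0.55 and averaged 0.14 ± 0.33 (adjusted p = 0.295). The SD stood at percentile 95.0 of all features in kidney and 96.7 in liver, so these means were poorly determined. Without kidney array 3, the low one, the kidney mean was 0.25 (adjusted p = 0.0408), and without loess it was 0.34 (adjusted p = 0.0189). Brain Nr1d2 was at -0.05 ± 0.16 (adjusted p = 0.722).

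Arntl, whose product is the indispensable partner in the activating pair, was lower in DBA/2J kidney. Its kidney values ran from -0.48 through -0.23 to -0.12, below 0 on every array. The mean was -0.26 ± 0.13, or 1.20-fold lower (adjusted p = 0.00870), and it was lower still with intensity unrestored (-0.42), with 1 loess curve (-0.57) and without loess (-0.96). Liver Arntl ran from -0.40 through -0.06 to 0.08 and averaged -0.12 ± 0.20 (adjusted p = 0.288). Brain Arntl ran from -0.11 through 0.01 to 0.43, with array 1 the high one, and averaged 0.06 ± 0.20 (adjusted p = 0.679). The kidney and liver spots were dim, at intensity percentiles of 24.6 and 12.0. The setting without loess lowers dim kidney spots such as that of Arntl.

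Npas2, the paralog that can replace Clock, was lower in DBA/2J brain. Its brain spot was dim, at intensity percentile 22.2. Brain values ran from -0.58 through -0.32 to -0.04, below 0 on every array, with a mean of -0.30 ± 0.19, or 1.24-fold lower (adjusted p = 0.0294). This call ended without brain array 3 (-0.28, adjusted p = 0.0728), array 4 (-0.29, adjusted p = 0.0895) or array 6 (-0.25, adjusted p = 0.0941), while the mean was -0.52 with 1 loess curve and -0.66 without loess. Kidney Npas2 averaged -0.14 ± 0.17 (adjusted p = 0.138) and liver Npas2 -0.18 ± 0.14 (adjusted p = 0.0848), with 4 and 5 of 6 arrays below 0. The kidney value depended strongly on the normalisation. It was -0.34 with intensities restored array by array (adjusted p = 0.00232), -0.35 without restoring them (adjusted p = 0.0136), -0.32 with 1 loess curve (adjusted p = 0.0344) and -0.81 without loess (adjusted p = 8.57e-06). The kidney spot was dim, at intensity percentile 17.7, and the setting without loess lowers such spots. In liver Npas2 passed with 1 loess curve (-0.35, adjusted p = 0.00930) and without loess (-0.43, adjusted p = 0.00515).

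Clock was the gene of the opposite set called higher in DBA/2J. Kidney values ran from 0.14 through 0.30 to 0.58 and liver values from 0.25 through 0.35 to 0.48, above 0 on all 12 arrays. The means were 0.32 ± 0.18 in kidney (adjusted p = 0.00406) and 0.35 ± 0.10 in liver (adjusted p = 0.00284), or 1.25-fold and 1.28-fold higher in DBA/2J. The liver spread was small for a feature of this array (SD percentile 7.89). Both calls stood in all 13 alternatives tried. The kidney mean was 1.05 without loess, a setting that raises bright kidney spots. Brain Clock ran from -0.42 through -0.05 to 0.10, with array 1 the low one, and averaged -0.09 ± 0.20 (adjusted p = 0.519). Clock spots were bright, at intensity percentiles of 80.5, 89.4 and 81.0.

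The comparison of the sets asked whether the Dbp, Per and Nr1d genes stood above Arntl, Clock, Npas2 and Nfil3 on the same array. They did on all 6 arrays of each tissue. The mean of the first set was 0.17 ± 0.12, 0.41 ± 0.13 and 0.31 ± 0.13 for brain, kidney and liver arrays. The mean of the opposite set was -0.07 ± 0.08, -0.06 ± 0.10 and -0.06 ± 0.06. The first set exceeded the opposite set by 0.24 ± 0.17 in brain (0.04 to 0.46), 0.47 ± 0.21 in kidney (0.10 to 0.69) and 0.37 ± 0.15 in liver (0.16 to 0.57). No test was run on this difference, because the genes were chosen with results of these data known. The first set lay on brighter spots, with median intensity percentiles of 78.5, 54.5 and 66.8 in brain, kidney and liver. Those of the opposite set were 49.6, 42.3 and 45.3. In kidney, where the ratio before loess rose with intensity, the difference was 0.76 without loess. The part of intensity in the difference was not tested.

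Dbp and Per3 were among the 3 highest genes of the first set in each tissue, while Per1 and Per2 were near 0 outside kidney. Array 3 gave the lowest mean of the first set in each tissue, -0.01 in brain, 0.197 in kidney, 0.12 in liver. Of the kidney arrays, array 3 had the lowest mean correlation with the others (0.547, against 0.606 to 0.662), Dbp, Per3 and Nr1d2 were at their lowest there, and the sets differed by 0.10. Without it the kidney sets differed by 0.55, and 7 clock genes passed, with Per1 and Per2 lost and Nr1d2 and Nfil3 gained. What sets this array apart was not tested. Without brain array 1 the brain sets differed by 0.22 and 3 clock genes passed, and without liver array 2 the liver sets differed by 0.40 and 4 passed. Without Clock, left out after its values were seen, the difference was 0.23 ± 0.17, 0.60 ± 0.19 and 0.51 ± 0.17 for the same tissues. Over all features the median of the mean ratios was 0.01 in each of brain and kidney and 0.0022 in liver. The median of the first set was 0.15, 0.39 and 0.21 in brain, kidney and liver, and that of the opposite set -0.02, -0.16 and -0.15.

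**Figure D2:**
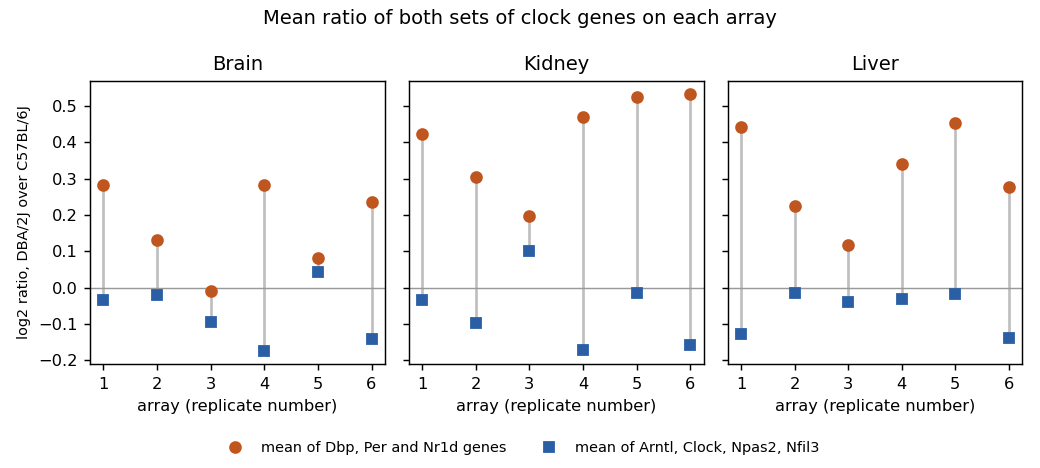
Mean log2 ratio of DBA/2J over C57BL/6J (vertical axis) on each array (horizontal axis, replicate number) for the Dbp, Per and Nr1d genes (orange circles) and for Arntl, Clock, Npas2 and Nfil3 (blue squares), joined by a line. The circle lies above the square on all 6 arrays of each tissue, by 0.04 to 0.46 in brain, 0.10 to 0.69 in kidney and 0.16 to 0.57 in liver.

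**Figure D3:**
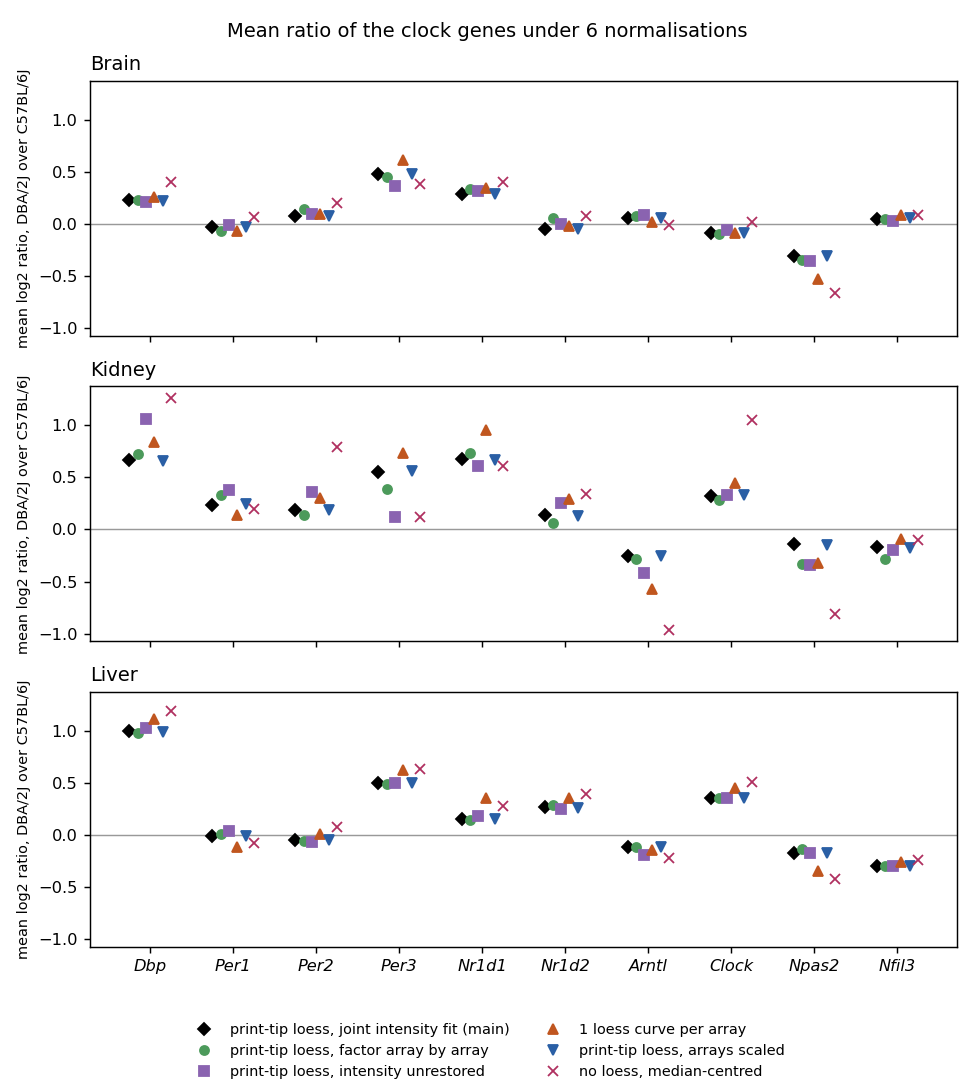
Mean log2 ratio (vertical axis) of each clock gene (horizontal axis) in the 3 tissues under the main normalisation and its alternatives, each symbol the mean of 6 arrays. In kidney the ratio without loess (crosses) departs most from the others for Arntl (-0.96), Clock (1.05) and Npas2 (-0.81). This does not hold for every gene: for kidney Nr1d1 the ratio with 1 loess curve departs most (0.95). Symbols lie closer together in liver.

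Differences between tissues were tested in 1 fit of all 18 arrays. Of the 10 genes, 1 had a higher and 2 a lower ratio in brain than in kidney, where 20.2% of all features differed (10.7% higher, 9.53% lower). Between brain and liver 1 was higher and 2 lower in brain, against 7.61% of features (4.36% higher, 3.25% lower). Between kidney and liver 1 was higher in kidney and 0 lower, against 15.5% (8.84% higher, 6.69% lower). Clock separated brain from both other tissues. Its ratio was lower in brain than in kidney by -0.41 ± 0.10 (SE, adjusted p = 0.00711) and than in liver by -0.44 ± 0.10 (SE, adjusted p = 0.00807), and the arrays did not overlap in either pair. Kidney and liver differed by -0.03 ± 0.10 for Clock (SE, adjusted p = 0.878). With intensity unrestored the brain and liver difference no longer passed (-0.40, adjusted p = 0.0546), and without loess the brain and kidney difference was -1.03.

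The Dbp ratio was lower in brain than in liver by -0.77 ± 0.17 (SE, adjusted p = 0.00531), with no overlap of arrays. Brain and kidney differed by -0.44 ± 0.17 (SE, adjusted p = 0.0714) and kidney and liver by -0.33 ± 0.17 (SE, adjusted p = 0.196), so that neither step passed in the main fit. The brain and kidney difference was larger and passed without loess (-0.86, adjusted p = 0.00024), with intensity unrestored (-0.85, adjusted p = 0.0143) and with intensities restored array by array (-0.49, adjusted p = 0.0370). Without kidney array 3 it was -0.53 (adjusted p = 0.0319), and it also passed without liver array 1 (-0.44, adjusted p = 0.0224), which takes part only in the pooled spread. The Nr1d1 ratio was higher in kidney than in liver by 0.52 ± 0.11 (SE, adjusted p = 0.00189) and lower in brain than in kidney by -0.39 ± 0.11 (SE, adjusted p = 0.0152). The arrays overlapped in both pairs. Without loess neither Nr1d1 difference passed (0.34, adjusted p = 0.0658, and -0.21, adjusted p = 0.282), nor did the second with intensity unrestored (-0.29, adjusted p = 0.0882).

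The Arntl ratio was higher in brain than in kidney by 0.32 ± 0.11 (SE, adjusted p = 0.0407), with no overlap. That call ended without brain array 1 (0.24), 2 (0.30) or 6 (0.32), without kidney array 3 (0.31), 4 (0.27) or 5 (0.31), and with the replicate number as a block (adjusted p = 0.0533). It was larger with intensity unrestored (0.50) and without loess (0.95), where Arntl also differed between kidney and liver (-0.74, adjusted p = 0.000504). The kidney Arntl spot was dim, and the setting without loess lowers such spots. The Nfil3 ratio was higher in brain than in liver by 0.35 ± 0.11 (SE, adjusted p = 0.0389), and the call ended without any 1 of brain arrays 1, 3, 4, 5 and 6 (0.32 to 0.36) or of liver arrays 1, 3, 4 and 6 (0.31 to 0.37), with intensity unrestored (0.33, adjusted p = 0.0991) and without loess (0.33, adjusted p = 0.175). The Per1 ratio missed the threshold between brain and kidney (-0.26 ± 0.10, SE, adjusted p = 0.0563) and between kidney and liver (0.25 ± 0.10, SE, adjusted p = 0.0829). Both Per1 differences passed without kidney array 2 (-0.32, adjusted p = 0.0223, and 0.31, adjusted p = 0.0331), the first also without brain array 6 (-0.31, adjusted p = 0.0380). With intensities restored array by array 6 genes differed between brain and kidney and 2 between kidney and liver.

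Averaging the 6 arrays of a tissue into 1 value left 3 values per gene, 1 for each tissue, tested against 0. None of the 10 genes passed in limma (0 of 10), with 4 at an unadjusted p under 0.05, and 21 of all features passed (0.104%, with 0.0396% higher and 0.0643% lower). Per3 had the most even values, 0.51 ± 0.03 (SD, n = 3 tissues, limma adjusted p = 0.0781). Dbp stood at 0.63 ± 0.39 (limma adjusted p = 0.129), Nr1d1 at 0.37 ± 0.27 (limma adjusted p = 0.181) and Npas2 at -0.21 ± 0.09 (limma adjusted p = 0.224).

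Other genes of the loop were described through lists written by role. Their counts are to be read beside the shares of all features called. These were 13.5% in brain (7.35% higher, 6.12% lower), 37.4% in kidney (18.7% higher, 18.6% lower) and 22.8% in liver (10.7% higher, 12.1% lower). Of the other clock repressors 5 of 8 listed names were on the arrays, and all calls among them were in the lower direction: 1 from brain, 2 from kidney and 1 from liver, with medians of -0.17, -0.05 and -0.16. In kidney other normalisations also called genes higher, 2 without loess and 1 each with intensity unrestored or restored array by array. Cry1, the partner of the PER proteins in repression, was lower in kidney (-0.26 ± 0.11, adjusted p = 0.00688) and in liver (-0.32 ± 0.35, adjusted p = 0.0483, lost without liver array 1, 3, 4, 5 or 6), and stood at -0.17 ± 0.26 in brain (adjusted p = 0.232). Timeless, a replication fork protein that also binds clock proteins, was lower in brain (-0.40 ± 0.25, adjusted p = 0.0151; -0.28 with 1 loess curve, adjusted p = 0.0689, and -0.37 without brain array 5, adjusted p = 0.0550). Its partner Tipin was the other kidney gene called (-0.24 ± 0.24, adjusted p = 0.0407), a call lost without kidney array 1, 2, 5 or 6 (-0.25 to -0.17).

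Of the factors that share the RRE or the D-box with the clock genes, 3 of 6 were measured. Rora, the activator that competes with the REV-ERBs at the RRE, was higher in kidney (0.30 ± 0.25, adjusted p = 0.0129) and liver (0.28 ± 0.25, adjusted p = 0.0375). Tef, a D-box activator related to Dbp, was higher in the same tissues, by 0.29 ± 0.33 (adjusted p = 0.0389) and 0.31 ± 0.12 (adjusted p = 0.00655). The Rora call in liver ended without liver array 1, 3, 4, 5 or 6 (0.199 to 0.31), and the Tef call in kidney without kidney array 1, 2, 4, 5 or 6 (0.24 to 0.29) and with 1 loess curve (0.23, adjusted p = 0.123). In brain neither passed (-0.02 ± 0.17 and -0.01 ± 0.26). Arntl2, the paralog of Arntl, passed in none of the tissues (-0.10, -0.14 and -0.12).

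Kinases, phosphatases and ubiquitin enzymes that set the life of clock proteins gave few calls among 12 measured of 17. Of all features 13.5%, 37.4% and 22.8% were called in brain, kidney and liver. In brain Prkaa2, a subunit of the energy sensor AMPK, was higher (0.34 ± 0.22, adjusted p = 0.0242), in kidney 2 genes were higher and 1 lower, and in liver Fbxw11, an F-box gene, was higher (0.21 ± 0.07, adjusted p = 0.0272). The Prkaa2 call ended with 1 loess curve (0.28, adjusted p = 0.0553), without loess (0.29, adjusted p = 0.0579) and without brain array 2, 3, 4 or 6. The Fbxw11 call ended with intensity unrestored (0.18, adjusted p = 0.0739) and without liver array 1, 3, 4 or 6. Usp2, a deubiquitinase whose own transcript is rhythmic, was higher in kidney (0.59 ± 0.27, adjusted p = 0.000239; 0.31 with intensities restored array by array and 0.13 without loess, adjusted p = 0.405), and Csnk1a1, a casein kinase 1 gene, was higher there as well (0.36 ± 0.11, adjusted p = 0.000778). Btrc, an F-box gene that targets PER proteins, was the kidney gene that was lower (-0.53 ± 0.34, adjusted p = 0.00156). Without loess the kidney ratios of Cry1, Tipin, Rora, Tef, Csnk1a1 and Btrc kept their sign and were 2.18 to 3.55 times as large, and the liver ratios of Cry1 and Rora were -0.52 and 0.46. In kidney Rora, Tef and Csnk1a1 had bright spots (intensity percentiles of 69.7 to 90.4) and Cry1, Tipin and Btrc dim ones (16.9 to 31.3). The trend of ratio with intensity, which stays in without loess, moves such spots in these same directions.

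Rhythmic output genes, 24 of 26 measured, split in both directions. In brain Cyp2a5 was higher (1.04 ± 0.69, adjusted p = 0.00596) on a dim spot, in kidney 9 were higher and 5 lower, and in liver 5 were higher and 9 lower, with medians of -0.06, 0.04 and -0.10. The 5 lower in kidney were Alas1, Avpr1a, Lpin1, Scnn1a and Slc16a1, and the 5 higher in liver were Cyp2a4, Cyp2a5, Noct, Nr0b2 and Upp2. With intensity unrestored the kidney counts were 6 and 1. Of all features 18.7% were higher and 18.6% lower in kidney, and 10.7% higher and 12.1% lower in liver. The cytochrome P450 genes Cyp2a4 and Cyp2a5, known targets of Dbp and its relatives, were the highest in kidney, at 1.59 ± 0.63 (adjusted p = 1.23e-05) and 1.53 ± 0.76 (adjusted p = 6.61e-05). They are near-identical copies that a spot may not separate. On kidney array 3 alone they stood near 0 (0.34 and 0.031, against at least 1.72 and 1.5 on the others). Cyp2a5 was also higher in liver (0.68 ± 0.24, adjusted p = 0.000308). Alas1, the first enzyme of heme synthesis and likewise a known target of that family, was lower in kidney (-0.50 ± 0.13, adjusted p = 0.000100), but did not pass with intensity unrestored (-0.29, adjusted p = 0.104) and turned higher without loess (0.26, adjusted p = 0.0406).

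In liver the largest output change was that of Lpin1, a phosphatidate phosphatase, which was lower by -1.04 ± 0.36 (adjusted p = 9.76e-05). Upp2, a uridine phosphorylase, was higher (0.83 ± 0.16, adjusted p = 2.93e-05), as was Nr0b2, the bile acid responsive repressor SHP (0.72 ± 0.26, adjusted p = 0.000293). Scnn1a, a sodium channel subunit gene known to follow Per1 in kidney, was lower there (-0.59 ± 0.18, adjusted p = 5.22e-05), but not with intensity unrestored (-0.24, adjusted p = 0.123) or without loess (0.15, adjusted p = 0.195).

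Peptides and receptors of the pacemaker region, 6 of 10 listed names measured, included 3 that were higher in brain and none lower in limma, also at an unadjusted p under 0.05. Of all features 7.35% were called higher in brain. Vip, the peptide that couples pacemaker neurons but is also made in cortex, ran from 0.39 to 1.71 in brain with a mean of 1.00 ± 0.62 (adjusted p = 0.00488). Avp, the vasopressin gene, was at 0.43 ± 0.27 (adjusted p = 0.0134) and Adcyap1, which encodes PACAP, at 0.27 ± 0.12 (adjusted p = 0.0285). The Avp call ended with 1 loess curve (0.25, adjusted p = 0.0762), without loess (0.27, adjusted p = 0.0751) and without brain array 5 (0.39, adjusted p = 0.0522), and that of Adcyap1 without brain array 3, 4, 5 or 6 (0.24 to 0.28). In kidney Adcyap1 was higher (0.28 ± 0.17, adjusted p = 0.00838) and Prok2, which encodes prokineticin 2, was lower (-0.69 ± 0.33, adjusted p = 0.000178). With intensity unrestored neither kidney call stood (0.21, adjusted p = 0.0875, and -0.23, adjusted p = 0.465), and without loess Adcyap1 turned to -0.21 and Prok2 was at -0.15. In liver Adcyap1 was higher (0.30 ± 0.10, adjusted p = 0.00638).

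Glucocorticoid response genes were listed because the daily corticosterone rhythm and stress act on Per1 as well. Of 14 measured of 16, in which Per1 and Cdkn1a also belong to other lists here, Errfi1 was lower in brain (-0.23 ± 0.11, adjusted p = 0.0430), a call that ended with intensity unrestored (adjusted p = 0.0642), with 1 loess curve (adjusted p = 0.0844) and without any 1 brain array. In kidney 3 were higher (Cdkn1a, Fkbp5 and Per1) and 5 lower (Hsd11b1, Klf9, Mt1, Sgk1 and Tsc22d3), and in liver 2 were higher (Lcn2 and Mt1) and 4 lower (Cdkn1a, Dusp1, Errfi1 and Tsc22d3). Of all features 37.4% were called in kidney and 22.8% in liver. The kidney directions rested on the loess step: without loess Klf9, Mt1, Sgk1 and Tsc22d3 stood above 0 and Cdkn1a below it. Tsc22d3 (GILZ), a widely used marker of glucocorticoid action, was lower in liver (-0.60 ± 0.30, adjusted p = 0.00159) and in kidney (-0.44 ± 0.13, adjusted p = 0.000251), where it stood at -0.25 with intensity unrestored (adjusted p = 0.0516) and 0.10 without loess (adjusted p = 0.405). Hsd11b1, which regenerates active glucocorticoid, was lower in kidney (-0.99 ± 0.16, adjusted p = 5.33e-07), though by less without loess (-0.25, adjusted p = 0.0359). The metallothionein gene Mt1 was higher in liver (1.90 ± 0.28, adjusted p = 5.43e-07).

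**Figure D4:**
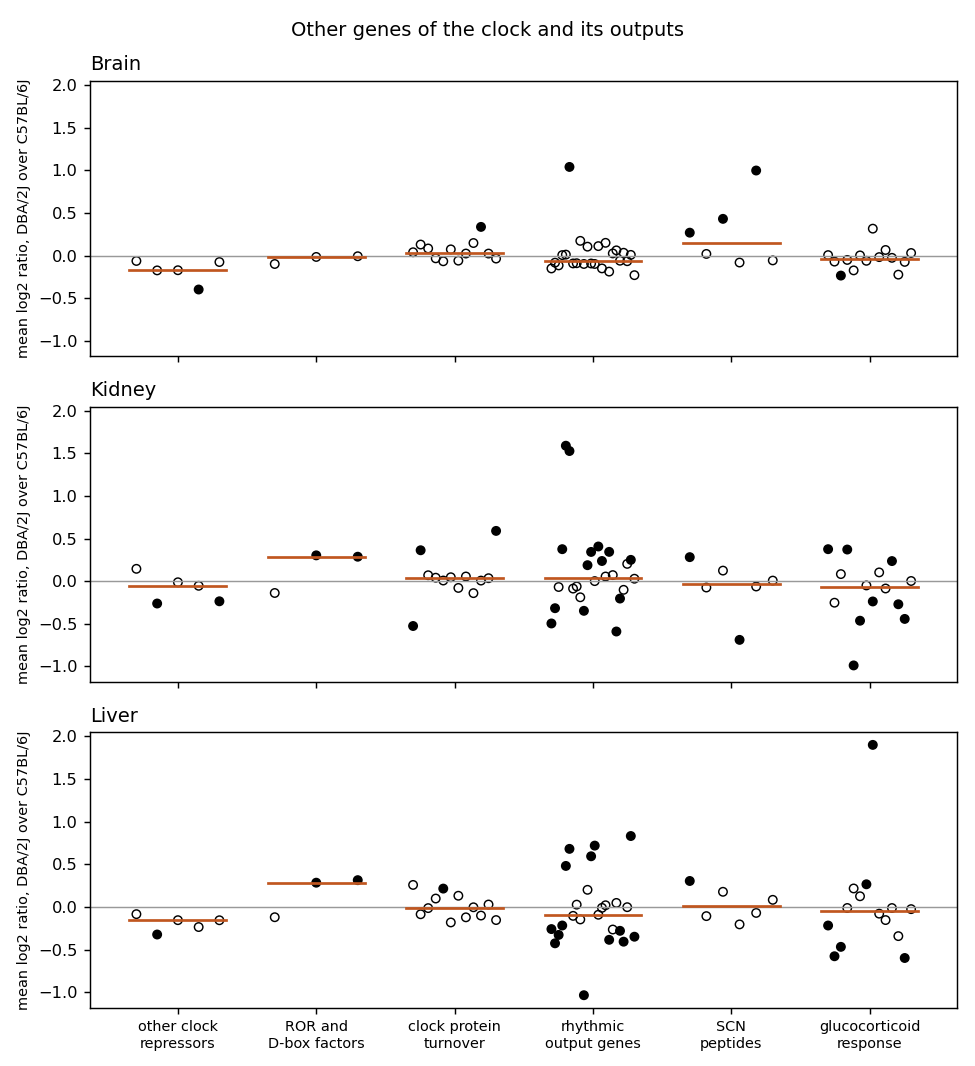
Mean log2 ratio of DBA/2J over C57BL/6J (vertical axis) of each measured gene in 6 other lists (horizontal axis) in the 3 tissues, each point the mean of 6 arrays. Filled points have an adjusted p under 0.05, and bars are list medians. Under this normalisation the called repressor genes lie below 0, and called output genes lie on both sides, 9 above and 5 below in kidney and 5 above and 9 below in liver.

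The genes most like Dbp over the 18 arrays were Dgat2 (Pearson's r of 0.839), Aldh1l1 (0.804), Mup3 (0.804), Ang2 (0.801) and Trf (0.799). Those most like Arntl were Smtn (0.834), Mgp (0.802), Extl2 (0.802), 2010315B03Rik (0.798) and 4931406C07Rik (0.797). The arrays fall into 3 tissues with common pools, so that these values describe the arrays alone. No other clock gene was among them.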

How the data were processed

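The deposited table gives log2 ratios for 23040 spots on 18 arrays. Per the labels, the authors extracted signals with Spot and applied print-tip lowess in limma, both in versions that the sources used here do not give. The deposited log2 ratios were in fact log2 of ratios of 2 whole numbers for 100.0% of 391770 values (tolerance 1e-12), with array medians from -1.65 to 0.16, and were treated as unnormalised. A further 1275 spots at 0 on every array were left out, leaving 21765.

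Both whole numbers of every ratio were recovered, their common factor was summed out over the arrays of a tissue, and the resulting intensity served print-tip loess in limma 3.58.1 (R 4.3.3; span 0.3, 4 iterations, 48 blocks of 480 spots, a layout assumed from spot order). This joint fit replaced a factor chosen array by array after the data had been seen, and it changed clock gene calls. The ground was better recovery of simulated data. As run here, the simulation drew its intensities from the joint fit itself, so it cannot decide between the methods. Spots of 1 symbol were averaged (symbols updated through RefSeq, 15964 spots matched). Each tissue was tested against 0 with lmFit and eBayes, tissue differences in a fit of 18 arrays, with Benjamini-Hochberg adjustment over 20218 features and a threshold of 0.05. Depth is limited by 6 arrays per tissue. Simulated features without a difference were called rarely in brain and liver and too often in kidney. The simulation held no dye effect constant for a spot, so it cannot show how often such an effect led to calls.

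Alternatives were no loess, unrestored intensity, 1 loess curve, scaled arrays, no dim features, each array left out and a replicate block. Whether replicate numbers pair arrays is not stated, and 2 of 18 correlations of same-number deviations were above 0.1 (-0.23 to 0.16). Low correlations cannot show that arrays of the same number shared no step. The clock genes and lists were chosen with earlier results of these data known. The genes named were all clock genes, up to 4 genes per other list and tissue past the threshold with 1 sign on 6 arrays, and the 5 most like Dbp and Arntl; other list genes were named after their values were seen (Rora, Tef in kidney, Cry1 in brain and liver, Tipin, Btrc, Arntl2 and those listed without a value).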

Additional observations from a re-analysis of the deposited data

Results flagged for a closer look

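On liver array 1 Dbp had a log2 ratio of 1.867, while the other 5 liver arrays lay between 0.63 and 1.04. On kidney array 3, genes named from other lists stood far below the other kidney arrays: Cyp2a4 at 0.34 (others at least 1.72), Cyp2a5 at 0.031 (others at least 1.5) and Tef at -0.36 (0.28 to 0.55). On the same array Mt1 stood at -0.73 (-0.28 to -0.04) and Sgk1 at 0.14 (-0.43 to -0.24). On liver array 5 Cyp2a5 stood above the others at 1.14 (0.48 to 0.67). On liver array 2 Lcn2 stood at -0.17 (0.25 to 0.46) and Dusp1 at 0.18 (-0.88 to -0.53). On kidney array 5 Prok2 stood at -1.32 (-0.65 to -0.36). These are 10 of 77 combinations of gene and tissue. Chance gives about 1 in 20 for independent normal values, but these were not independent. Several came from kidney array 3, Cyp2a4 and Cyp2a5 are near-identical copies, and the list genes were named for their calls. The count therefore cannot be read against that rate. Of the 30 combinations of clock gene and tissue, only Dbp in liver was flagged.

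Differences between tissues passed for 7 of the 30 combinations of gene and tissue pair in limma. Of all features 20.2% differed between brain and kidney, 7.61% between brain and liver and 15.5% between kidney and liver. The clock gene differences were brain minus liver for Dbp (-0.77), Clock (-0.44) and Nfil3 (0.35), brain minus kidney for Nr1d1 (-0.39), Arntl (0.32) and Clock (-0.41), and kidney minus liver for Nr1d1 (0.52).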

How the results depend on the processing

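No called ratio of a clock gene within a tissue changed its sign under the alternatives run. Of 47 calls of genes named from other lists, 22 stood in every alternative run and 25 were lost or turned in at least 1. In kidney Alas1 (0.26), Scnn1a (0.15), Tsc22d3 (0.10), Klf9 (0.21), Mt1 (0.66) and Sgk1 (0.27) turned higher without loess, Adcyap1 (-0.21) and Cdkn1a (-0.15) turned lower, and Cdkn1a did so with intensity unrestored (-0.042). Kidney was the tissue most open to the normalisation: without loess 13113 kidney features passed and the sets differed there by 0.76, against 7560 and 0.47. The ratio before loess rose with spot intensity on every kidney array (Pearson's r of 0.62 to 0.72). Without loess the kidney minus liver differences of Per3 (-0.51), Clock (0.54) and Npas2 (-0.38) turned their direction and passed, and 5 clock genes differed between these tissues. With intensity unrestored 1 clock gene differed between brain and liver and 2 between kidney and liver. With the factor chosen array by array, an alternative added after the data had been seen, 6 differed between brain and kidney and 2 between kidney and liver, and 8 kidney genes passed against 7. Without the dimmest 25% of features 1 clock gene and 1979 features passed in brain. Per3 and Npas2, at brain intensity percentiles of 7.03 and 22.2, were themselves among the features left out there. In kidney 5 clock genes (5 higher, 0 lower) and 5196 features passed in that setting, and in liver 3 (2 higher, 1 lower) and 3686. Arntl and Per3, at kidney intensity percentiles of 24.6 and 6.61, were left out in kidney, and Per3 (1.36) in liver. Leaving out 1 array gave 1 to 3 clock genes and 1246 to 3263 features in brain, 2926 to 4572 features in liver, and 1 to 2 clock genes between kidney and liver; the low brain counts came without array 2, 4, 5 or 6 (1634, 1246, 1343 and 1403). The cause was not tested. The replicate block changed 1 of 30 tissue differences, Arntl between brain and kidney (0.32, adjusted p = 0.0533), and left 6 of 7 calls; no other call changed under the block.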
